A study of Mus musculus with 8 samples.

Results

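RNA of 10 transcription factor genes of the endothelium was followed in brain endothelial cells sorted by flow cytometry from mice at postnatal day 8. The genes were chosen by symbol: the SOXF factors Sox7, Sox17 and Sox18, the ETS factors Erg, Fli1 and Ets1, the hematopoietic and endothelial factors Tal1 and Gata2, and the Krüppel-like factors Klf2 and Klf4. All 10 were among the 24394 symbols listed in each of the 8 tables, and all 10 were among the 8706 genes with enough signal to be tested. The YT-ECKO group held 4 libraries from mice that carry VE-cadherin-CreERT2, a tamoxifen-inducible Cre under an endothelial promoter, together with the floxed alleles Yapf/f and Tazf/f. The WT group held 4 libraries from wild type mice, and both groups carry the strain label C57BL/6J. The controls are labelled only as wild type, so effects of the deletion, of the Cre and of any tamoxifen given cannot be told apart. Whether the libraries of a group are from different mice is not stated, and p-values therefore measure the spread between these samples, which may be technical.

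Yap and Taz encode co-activators, held back by Hippo signalling, that reach DNA through TEAD factors. SOXF factors bind DNA through an HMG box and act in arterial specification and vessel growth, with Sox17 known for its part in arterial fate and in the brain endothelial barrier and Sox18 for its part in lymphatic development. ERG and FLI1 are ETS factors that bind the enhancers of many genes of endothelial identity, and ETS1 is an ETS factor of angiogenic endothelium. TAL1 is a basic helix-loop-helix factor that pairs with E proteins and assembles with LMO2, LDB1 and GATA factors, and GATA2 is the main GATA factor of endothelium. KLF2 and KLF4 are zinc finger factors raised by laminar flow through MEK5, ERK5 and MEF2, and they drive anti-inflammatory and anticoagulant genes such as Nos3 and Thbd.

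Values are given as scaled reads, obtained by raising 2 to the deposited log2 value. A value listed as 0 stayed 0, and a gene's 4 values per group run from library 1 to library 4. Differences are YT-ECKO minus WT in log2(scaled reads + a pseudocount whose log2 is 7), a scale that understates the change of low genes, with the standard error (SE) of a limma fit over all genes tested. A gene was called at a Benjamini-Hochberg adjusted p under 0.05. None of the 10 factors was called. Over all genes tested the share called was 0.0345%, or 3 genes, all lower in YT-ECKO, so the count of 0 is near the background. The spacing of low values implied 6.76 to 13.5 M reads in YT-ECKO libraries and 7.55 to 16.8 M in WT libraries. YT-ECKO 1 stood apart. It held under 10 scaled reads of 7.68% of the 3490 genes that averaged 500 or more in the other 7 libraries. The like share was 2.12% to 4.10% for the other YT-ECKO libraries and 0.716% to 2.86% for WT libraries. Symbols above 0 averaged 8353 ± 554 in YT-ECKO and 9357 ± 514 in WT (SD, n = 4 each). Without YT-ECKO 1 they ran from 8424 to 8779 in YT-ECKO, against 8636 to 9737 in WT. The part of this in low genes that lay lower in YT-ECKO was not tested. Differences of the factors in which YT-ECKO 1 stands apart are given with and without it. The floxed genes were lower in every YT-ECKO library, Wwtr1 (Taz) at 348 to 2608 scaled reads across YT-ECKO, against 5650 to 8220 across WT (limma adjusted p = 0.0113), and Yap1 at 9.29 to 605 in YT-ECKO and 1409 to 2833 in WT (limma adjusted p = 0.175). Reads outside the floxed exons count toward these symbols. The 12 endothelial identity markers summed to 156181 to 218204 scaled reads across YT-ECKO, against 189506 to 209614 across WT, and each was above 0 in some library. Of the 12 leukocyte and microglia markers 6 were at 0 in all libraries, Ptprc among them, and the list summed to 520 to 1828 scaled reads across YT-ECKO, against 542 to 1560 across WT. Laptm5, the most abundant of that list, was above 0 in all 8 libraries, at 391 to 1828 across YT-ECKO, against 520 to 1456 across WT. Sums of mural markers were 156 to 1248 in YT-ECKO and 413 to 1821 in WT, of fibroblast markers 0 to 215 in YT-ECKO and 110 to 474 in WT, of neuron markers 0 to 1896 in YT-ECKO and 5.97 to 187 in WT, and of oligodendrocyte markers 0 to 1067 in YT-ECKO and 0 to 251 in WT. At 0 in all 8 libraries were 1 of 12 mural markers (Anpep), 1 of 6 fibroblast markers (Lum), 4 of 8 neuron markers (Syt1 among them), 3 of 7 oligodendrocyte markers (Mog among them) and 1 of 8 astrocyte markers (Aldh1l1). The most abundant neuron marker, Rbfox3, stood at 1375 scaled reads in YT-ECKO 1, 489 in YT-ECKO 4, 0 in YT-ECKO 2 and 3, and 0 to 8.65 in WT. The part of these cells in the values below was not tested. In sorted bulk cells, fewer cells of a type and less RNA per cell cannot be told apart.

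**Figure D1:**
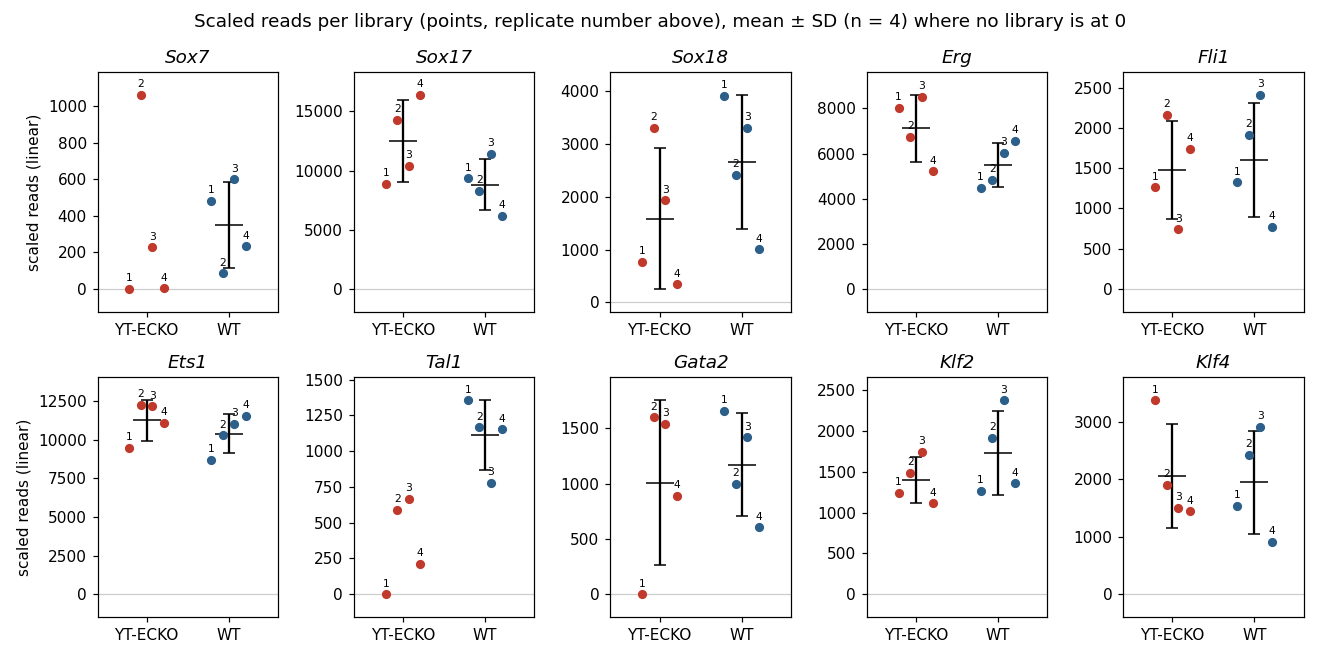
Scaled reads (linear axis, its range set per gene) of the 10 factors in each YT-ECKO and WT library; bars give the mean and SD of 4 libraries and are left out where a library is listed at 0. Tal1 is the one factor whose groups do not overlap, at 0 to 666 across YT-ECKO, against 778 to 1355 across WT.

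Tal1 had the smallest p of the 10 factors and was lower in YT-ECKO. It measured 0, 591, 666 and 214 scaled reads across YT-ECKO, against 1355, 1167, 778 and 1154 across WT. The groups did not overlap, with a narrow gap between 666 in YT-ECKO 3 and 778 in WT 3. Groups failed to overlap in this direction for 2.07% of all genes tested, and in either direction for 3.4%. The log2 difference was -1.62 ± 0.56 (SE), with a 95% interval of -2.78 to -0.46. Its unadjusted limma p of 0.00811 ranked 99 among the genes tested, and the adjusted p was 0.698. A two-sided exact permutation test on scaled reads gave p = 0.0286, the smallest that 4 against 4 libraries allow, and p = 0.0571 with YT-ECKO 1, YT-ECKO 4 or WT 1 left out. Without YT-ECKO 1 the difference was -1.07 ± 0.48 (SE; limma adjusted p = 0.802), with 490 ± 242 scaled reads in the remaining YT-ECKO libraries (SD, n = 3) and 1113 ± 242 in WT (SD, n = 4). Tal1 is also a factor of erythroid cells. Of the 9 erythroid markers listed, the summed level was 13411 to 48278 scaled reads across YT-ECKO, against 13236 to 37584 across WT, and the erythroid factors Gata1 and Klf1 were at 0 in all 8 libraries. With the summed erythroid markers as a covariate the Tal1 difference was -1.25 (limma adjusted p = 0.975). Hba-a1 and Hba-a2 had identical values in every library, so these values enter the sum, and thus the covariate, more than once.

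Tal1 lies on chromosome 4, 115056426 to 115071755, plus strand (GRCm38). The 250 bases before its most upstream RefSeq start (build GRCm38.p6, chr4:115056176-115056425, plus strand) are shown because Tal1 was the factor without overlap between the groups. The capitals mark GGAATG, the core letters of TEAD sites.
Tal1 upstream window: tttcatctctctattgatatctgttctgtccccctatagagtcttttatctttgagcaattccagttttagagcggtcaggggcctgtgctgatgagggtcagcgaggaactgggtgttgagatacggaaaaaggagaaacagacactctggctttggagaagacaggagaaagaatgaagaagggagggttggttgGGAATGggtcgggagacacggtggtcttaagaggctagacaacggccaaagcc
GGAATG or its reverse complement stood 53 to 48 bases before the start here, and in 12.6% of the 32817 windows of 250 bases before RefSeq starts, both strands searched. The set of RefSeq windows used here held 9 windows for 5 of the 10 factors, namely Erg, Tal1, Gata2, Klf2 and Klf4. It held none for Sox7, Sox17, Sox18, Fli1 and Ets1, which were therefore not searched. The letters stood in 3 of the 9, 1 each for Erg, Tal1 and Gata2, and the Gata2 window overlaps an annotated Gata2 exon. It overlapped none of the other motifs searched. A match in letters does not show binding.

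Gata2, the partner of Tal1 in endothelial complexes, measured 3.13, 1596, 1540 and 888 scaled reads across YT-ECKO, against 1655, 997, 1416 and 605 across WT. YT-ECKO 1 alone was near 0, and the other YT-ECKO libraries lay within the range of WT. The log2 difference of -0.64 ± 0.69 (SE; limma adjusted p = 0.990) turned to 0.22 ± 0.44 (SE; limma adjusted p = 0.987) without YT-ECKO 1. Gata2 (chromosome 6, 88193891 to 88207032) averaged 1341 ± 393 scaled reads in the remaining YT-ECKO libraries (SD, n = 3) and 1168 ± 464 in WT (SD, n = 4).

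Among the SOXF factors, mean values in YT-ECKO were higher for Sox17 and lower for Sox18 and Sox7, and none passed the test. Sox17 (chromosome 1, 4490931 to 4497354) measured 8872, 14273, 10398 and 16373 scaled reads across YT-ECKO, against 9339, 8278, 11434 and 6195 across WT. YT-ECKO 2 and 4 lay above all WT libraries, and YT-ECKO 1 and 3 lay within their range. The means were 12479 ± 3451 in YT-ECKO and 8811 ± 2182 in WT (SD, n = 4 each), a ratio of 1.42. The log2 difference was 0.49 ± 0.27 (SE), with a 95% interval of -0.07 to 1.04 and a limma adjusted p of 0.928. Without YT-ECKO 1 it was 0.64 ± 0.27 (SE; limma adjusted p = 0.787, and 0.0294 before adjustment), the largest value with a library left out. The smallest was 0.33 ± 0.28 (SE), without WT 4 (limma adjusted p = 0.997, and 0.244 before adjustment).

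Sox18 (chromosome 2, 181669836 to 181671640) measured 766, 3315, 1939 and 340 scaled reads across YT-ECKO, against 3921, 2414, 3313 and 1006 across WT. YT-ECKO 1 and 4 lay below all WT libraries, and YT-ECKO 2 lay above 3 of them. The means were 1590 ± 1334 in YT-ECKO and 2663 ± 1267 in WT (SD, n = 4 each), and the log2 difference was -0.94 ± 0.56 (SE; 95% interval -2.12 to 0.25; limma adjusted p = 0.974). It was -1.40 without YT-ECKO 2, -0.44 without YT-ECKO 4 and -0.45 with the erythroid covariate (limma adjusted p = 0.678, 0.929 and 0.999). The highest YT-ECKO library held 9.75 times the level of the lowest, and the highest WT library 3.90 times that of the lowest. Sox7 (chromosome 14, 63943673 to 63950732) measured 0, 1060, 227 and 3.46 scaled reads across YT-ECKO, against 480, 86.0, 600 and 233 across WT. YT-ECKO held both the highest and the lowest libraries. Its log2 difference was -0.57 ± 0.69 (SE; limma adjusted p = 0.990), and with a library left out it ran from -1.24 (without YT-ECKO 2) to -0.17 (without YT-ECKO 1).

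Ets1 and Erg were fairly even across the libraries within a group, and Fli1 was less so. Ets1 (chromosome 9, 32636221 to 32757820) measured 9476, 12288, 12170 and 11098 scaled reads across YT-ECKO, against 8725, 10297, 11052 and 11561 across WT. The groups overlapped widely, and within each group the highest library was at most 1.33 times the lowest. The means were 11258 ± 1303 in YT-ECKO and 10409 ± 1237 in WT (SD, n = 4 each), with a log2 difference of 0.11 ± 0.24 (SE; 95% interval -0.38 to 0.60; limma adjusted p = 0.991). Its residual SD of 0.17 log2 units was below that of nearly all genes tested, at percentile 0.609, where the median over the genes tested was 0.69.

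Erg (chromosome 16, 95359169 to 95586593) measured 8018, 6733, 8504 and 5206 scaled reads across YT-ECKO, against 4492, 4841, 6034 and 6571 across WT. YT-ECKO 1, 2 and 3 lay above all WT libraries, and YT-ECKO 4 lay within their range. The means were 7115 ± 1476 in YT-ECKO and 5485 ± 981 in WT (SD, n = 4 each), a ratio of 1.30. The log2 difference of 0.36 ± 0.28 (SE; 95% interval -0.22 to 0.94) had a limma adjusted p of 0.984. Fli1 (chromosome 9, 32422204 to 32542861), the closest relative of Erg, measured 1261, 2165, 741 and 1744 scaled reads across YT-ECKO, against 1325, 1915, 2409 and 773 across WT. Both groups ran over about the same range, and the log2 difference was -0.10 ± 0.43 (SE; 95% interval -0.99 to 0.80; limma adjusted p = 0.994).

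Klf2 and Klf4 showed no difference beyond the spread between libraries. Klf2 (chromosome 8, 72319033 to 72321656) measured 1241, 1491, 1747 and 1114 scaled reads across YT-ECKO, against 1269, 1916, 2377 and 1358 across WT. The YT-ECKO values lay in the lower part of the WT range or just under it. The means were 1398 ± 281 in YT-ECKO and 1730 ± 518 in WT (SD, n = 4 each), with a log2 difference of -0.26 ± 0.39 (SE; 95% interval -1.06 to 0.54; limma adjusted p = 0.990). Klf4 (chromosome 4, 55527143 to 55532466) measured 3371, 1906, 1498 and 1439 scaled reads across YT-ECKO, against 1535, 2427, 2916 and 908 across WT. YT-ECKO 1 was the highest of the 8 libraries, and the other YT-ECKO libraries lay within the WT range. The log2 difference of 0.11 ± 0.41 (SE; 95% interval -0.74 to 0.96; limma adjusted p = 0.994) was -0.14 ± 0.42 (SE) without YT-ECKO 1.

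The bases before the Klf2 start are shown because KLF2 is the factor of the set whose input through MEF2 is best known. They lie at chr8:72318812-72319032 (RefSeq, build GRCm38.p6, plus strand) and end before the first annotated exon base. The capitals mark CTA and TAG set 4 bases apart, a pattern that is its own reverse complement. It is a looser form of the MEF2 site, whose 4 middle bases are A or T, as they are here. The search accepted any base at these places, so its share of windows is not that of MEF2 sites.
Klf2 upstream window: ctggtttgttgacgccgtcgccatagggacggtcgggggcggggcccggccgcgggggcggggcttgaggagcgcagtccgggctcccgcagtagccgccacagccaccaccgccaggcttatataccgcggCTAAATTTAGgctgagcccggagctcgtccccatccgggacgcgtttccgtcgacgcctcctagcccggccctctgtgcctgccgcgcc
This pattern stood 118 to 109 bases before the RefSeq start and occurred in 3.20% of the 32817 windows of 250 bases used here. CCACCC, the letters of a CACCC box bound by Krüppel-like factors, was found on the minus strand 19 to 14 bases before the Klf2 RefSeq start, beyond the end of the sequence shown and within the annotated Klf2 exon, and in 28.1% of all windows. ETS letters (CGGAAG, 13.6% of all windows) and the TAL1 E-box (CAGATG, 14.5%) were in none of the 9 windows of the 5 factors searched. SOX letters (ACAATG, 10.7%) were found for Erg, and GATA letters (AGATAA, 9.99%) for Erg and Tal1. All were searched on both strands, and none of these matches overlapped another.

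**Figure D2:**
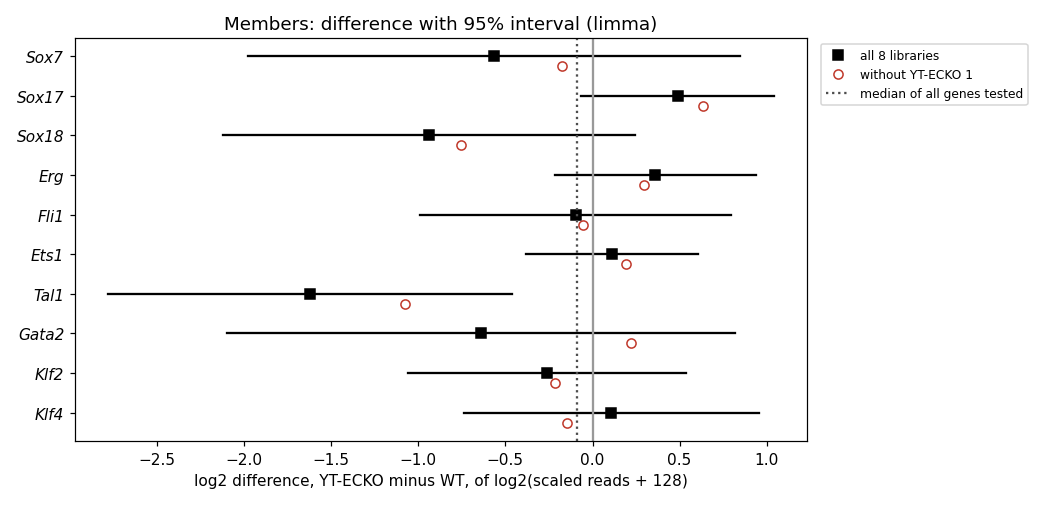
Log2 difference (YT-ECKO minus WT) of each factor with its 95% interval from limma; open circles give the difference without YT-ECKO 1. The interval of Tal1, -2.78 to -0.46, is the one that leaves out 0, and the circles of Gata2 (0.22) and Klf4 (-0.14) lie on the other side of 0 from their squares.

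Of the 10 factors, 6 lay lower and 4 lay higher in YT-ECKO. Their median log2 difference was -0.18, beside -0.09 over all genes tested, of which 56.9% lay lower. Without YT-ECKO 1 the counts were again 6 lower and 4 higher, with a median of -0.10, beside -0.05 over all genes tested. With other libraries left out the median ran from -0.37 (without WT 4, 7 lower and 3 higher) to 0.01 (without WT 3, 5 lower and 5 higher). At an unadjusted limma p under 0.05 there was 1 lower factor (Tal1) and no higher one, where the shares over all genes tested were 3.69% lower and 1.78% higher, or 5.47% in either direction. Without YT-ECKO 1 there were 2, Tal1 and Sox17, beside 499 of the 8492 genes tested. The same 2 passed without WT 3 (384 of 8137 genes tested). Tal1 and Sox18 passed without YT-ECKO 2 (538 of 8309), without WT 4 (410 of 8289) and with the replicate block (483 of 8706). With any other library left out it was Tal1 alone. The factors with values under 10 scaled reads in some library (Sox7, Tal1 and Gata2) had residual SDs of 1.21, 0.89 and 1.31 log2 units, at percentiles 92.8, 74.5 and 94.9 of the genes tested. Ets1, Erg, Klf2 and Sox17 had residual SDs of 0.17, 0.28, 0.34 and 0.38 log2 units, at or below percentile 9.94.

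Per kilobase of annotated exon, Sox17 had the highest mean level of the factors in both groups, 2615 scaled reads per kb in YT-ECKO and 1846 in WT. Erg followed at 2053 in YT-ECKO and 1582 in WT, and Ets1 stood at 1328 and 1228 scaled reads per kb in YT-ECKO and WT. Sox18 had 982 scaled reads per kb in YT-ECKO and 1644 in WT, which placed it below Ets1 in YT-ECKO and above Erg in WT. The lowest of the factors without a library at 0 was Gata2, with 187 in YT-ECKO and 216 in WT. The labels name a Quant-Seq kit, and no source used here states that whole transcripts were read. This order holds only if they were, so it is not given as a ranking of expression. It rests on the division by exon length, 1620 bases for Sox18 and 8476 for Ets1. In scaled reads without the length, Ets1 and Sox17 had the highest means in both groups. In WT, Sox18 (2663) then lay below Erg (5485) and Ets1 (10409).

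Ratios of related factors within a library, which do not depend on the scaling of that library apart from the added pseudocount, also overlapped between the groups. The log2 ratio of Sox17 over Sox18 was 3.33, 2.06, 2.35 and 5.14 across YT-ECKO, against 1.23, 1.73, 1.75 and 2.48 across WT. YT-ECKO 1 and 4 lay above all WT libraries, and YT-ECKO 2 and 3 lay above 3 of the 4. The means were 3.22 ± 1.39 in YT-ECKO and 1.79 ± 0.52 in WT (SD, n = 4 each). The log2 ratio of Erg over Ets1 was -0.67 ± 0.37 in YT-ECKO and -0.92 ± 0.12 in WT, and that of Klf2 over Klf4 was -0.45 ± 0.65 in YT-ECKO and -0.08 ± 0.40 in WT (SD, n = 4 each). Gata2 over Tal1 was 0.03, 1.26, 1.07 and 1.57 across YT-ECKO, against 0.27, -0.20, 0.77 and -0.81 across WT. Apart from YT-ECKO 1, where both genes were near or at 0, the YT-ECKO ratios lay above those of WT. These ratios are descriptions and were not tested.

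**Figure D3:**
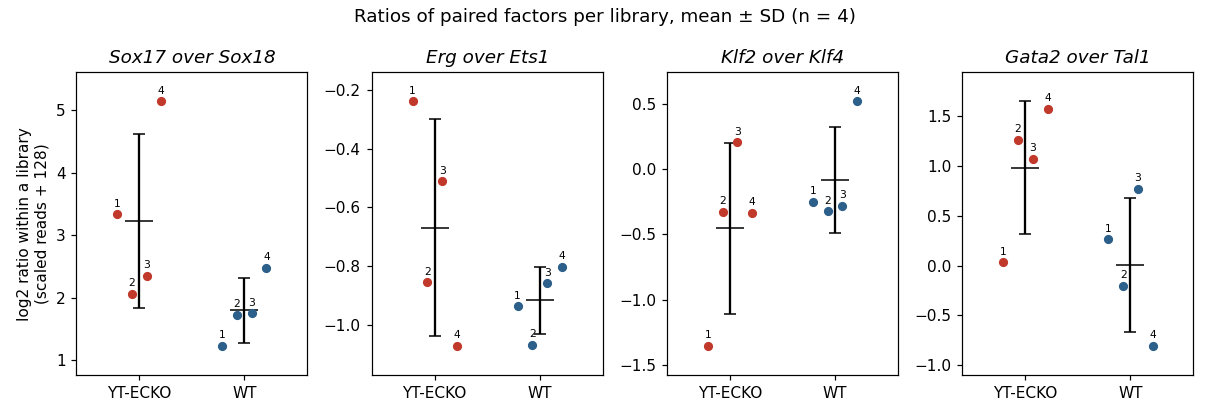
Log2 ratio of 2 factors within each library, computed with the pseudocount, with the mean and SD of 4 YT-ECKO and 4 WT libraries. Sox17 over Sox18 averages 3.22 in YT-ECKO and 1.79 in WT, and the groups overlap in all 4 panels.

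For the 8 factors above 0 in all libraries, the genes with the most similar course over the 8 libraries were found by the root mean square difference of centred log2 values, with the same pseudocount, among 4846 other genes above 0 throughout. Ets1 was nearest to Cltc, the clathrin heavy chain gene (0.08 log2 units), and Arl6ip5 (0.10). Erg was nearest to Sh3pxd2a (0.16) and Vwa1 (0.18), Fli1 to Ints3 (0.13) and Sobp (0.22), and Sox17 to Syap1 (0.17) and Tm9sf4 (0.19). Gata2 was nearest to Sel1l (0.19) and Fam65a (0.24), Klf2 to Atxn7l3b (0.15) and Mapkbp1 (0.16), Klf4 to Cltb (0.20) and Rbms1 (0.24), and Sox18 to Tmcc1 (0.33) and Dock6 (0.34). By the same measure Ets1 lay 0.16 log2 units from its own mean, so a small difference from it needs little more than a flat course. Gata2 lay 1.18 log2 units from its own mean, with YT-ECKO 1 at 3.13 scaled reads. These are descriptions over 8 libraries of which 4 are YT-ECKO.

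The relatives and partners of these factors gave 0 calls in limma as well, and lists were described without a test. Unadjusted limma p-values under 0.05 were found for 2 lower genes of the TAL1 partner list (Tcf12 and Zfpm1), 1 lower gene of the upstream list (Rbpj) and 1 higher gene of the flow list (Timp3), and for 0 genes of the other 4 lists. Over all genes tested these shares were 3.69% lower and 1.78% higher, as above, and without YT-ECKO 1 the count in the TAL1 partner list was 0. In the list of other GATA factors and partners of TAL1, 11 of 18 genes were tested, 7 lying lower and 4 lying higher in YT-ECKO, a median log2 difference of -0.23 (-0.38 to -0.16 with a library left out). Tcf12, which encodes the E protein HEB, a dimer partner of TAL1, measured 531, 2079, 2587 and 1483 scaled reads across YT-ECKO, against 2894, 3038, 3442 and 3322 across WT. No YT-ECKO library reached the lowest WT library, which held in this direction for 2.07% of all genes tested. The log2 difference was -1.05 ± 0.40 (SE; limma adjusted p = 0.777), and it was -0.63 without YT-ECKO 1 (limma adjusted p = 0.891). Zfpm1, which encodes the GATA cofactor FOG1, measured 6.21, 353, 128.2 and 0 scaled reads across YT-ECKO, against 763, 372, 284 and 252 across WT (log2 difference -1.26 ± 0.60, SE; limma adjusted p = 0.905; -1.04 without YT-ECKO 1). Cbfa2t3, which encodes the corepressor ETO2, had 2656 ± 909 in YT-ECKO and 1665 ± 1496 in WT, and Lmo2, the bridging protein of the complex and the most abundant of the list in scaled reads, 11749 ± 2612 in YT-ECKO and 13541 ± 3466 in WT (SD, n = 4 each).

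Among other SOX genes 6 of 16 were tested, all 6 with lower values in YT-ECKO (median -0.25), and 5 of them without YT-ECKO 1 (median -0.12). With any library left out the median ran from -0.50 to -0.12. Sox12, a SOXC factor, measured 1.59, 0, 177 and 58.6 scaled reads across YT-ECKO, against 206, 272, 323 and 172 across WT (log2 difference -1.07 ± 0.53, SE; limma adjusted p = 0.928; -0.92 without YT-ECKO 1). Sox9, a factor of astrocytes and mesenchyme, measured 0, 897, 1095 and 269 scaled reads across YT-ECKO, against 545 to 895 across WT. The astrocyte list to which it belongs summed to 3.14 to 1483 scaled reads across YT-ECKO, against 1053 to 1305 across WT, and its part in the SOX values was not tested. Sox15 had 528 ± 408 scaled reads in YT-ECKO and 579 ± 257 in WT, and Sox4, the SOXC gene with the most scaled reads, 2511 ± 887 in YT-ECKO and 2592 ± 625 in WT (SD, n = 4 each).

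Among other ETS genes 12 of 23 were tested, 10 lying lower and 2 lying higher in YT-ECKO (median -0.26), and 8 and 4 without YT-ECKO 1 (median -0.07). With any library left out the median ran from -0.35 to -0.07. Elk4, a ternary complex factor, measured 155, 0, 346 and 354 scaled reads across YT-ECKO, against 1.19, 37.3, 0 and 96.5 across WT (log2 difference 0.94 ± 0.51, SE; limma adjusted p = 0.928). Etv1 and Etv5, of the PEA3 subfamily, each had libraries at 0 in both groups. Etv1 reached at most 65.6 scaled reads in YT-ECKO and 565 in WT, and Etv5 at most 127.6 in YT-ECKO and 300.5 in WT. Elf2 had the most scaled reads of this list, 3400 ± 1639 in YT-ECKO and 3451 ± 1543 in WT (SD, n = 4 each).

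Among other Krüppel-like genes 9 of 15 were tested, 6 lying higher and 3 lying lower in YT-ECKO (median 0.22). The median was 0.41 without YT-ECKO 1 and -0.08 without YT-ECKO 3, where 3 of 7 tested genes lay higher and 4 lay lower. Klf9, a glucocorticoid-responsive factor, measured 682, 725, 1073 and 683 scaled reads across YT-ECKO, against 356, 348, 701 and 293 across WT. WT 3 alone reached into the YT-ECKO range, and the log2 difference was 0.77 ± 0.49 (SE; limma adjusted p = 0.980). Klf10 ran over 2.65 to 839 scaled reads across YT-ECKO, against 0 to 338 across WT, and Klf13 over 506 to 2874 in YT-ECKO and 1186 to 2287 in WT. Klf6, an injury-responsive factor with the highest mean of the list, had 1994 ± 155 in YT-ECKO and 2276 ± 475 in WT (SD, n = 4 each).

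**Figure D4:**
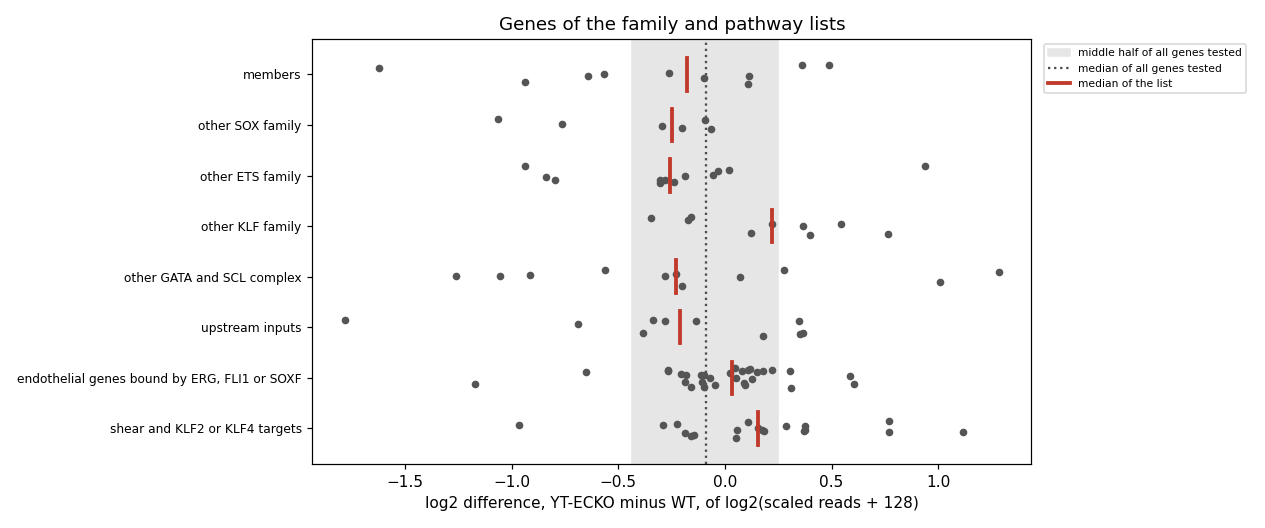
Log2 differences (YT-ECKO minus WT) of the tested genes of each list (points) with the list's median (red bar), beside the median (dotted line) and interquartile range (grey band) of all genes tested. List medians lie between -0.26 (other ETS genes) and 0.22 (other Krüppel-like genes), and no point is a called gene.

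The upstream inputs were a mixed list of MEF2 factors, the MEK5 and ERK5 kinases, the cerebral cavernous malformation genes that restrain them, the flow sensor gene Piezo1 and the Notch effector Rbpj. Of its 12 genes 10 were tested, 6 lying lower and 4 lying higher in YT-ECKO (median -0.21, and -0.28 to 0.03 with a library left out, the highest without YT-ECKO 1). Rbpj measured 4.67, 245, 304 and 9.21 scaled reads across YT-ECKO, against 995, 499, 1661 and 196 across WT. WT 4 alone lay within the YT-ECKO range, and the log2 difference was -1.78 ± 0.63 (SE; limma adjusted p = 0.712), or -1.51 without YT-ECKO 1. Mef2a, a MEF2 factor upstream of Klf2 and Klf4, had 7216 ± 2062 in YT-ECKO and 5578 ± 1412 in WT, and Piezo1 1564 ± 510 in YT-ECKO and 1989 ± 511.7 in WT (SD, n = 4 each).

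Genes whose enhancers or promoters are bound by ERG, FLI1 or SOXF factors in endothelium were all detected. Of 30 tested, 16 lay higher and 14 lay lower in YT-ECKO, and the median log2 difference was 0.03 (-0.05 without WT 2 to 0.06 without YT-ECKO 1). Mmrn2, which encodes the endothelial matrix protein multimerin 2, measured 4580, 5545, 5890 and 4291 scaled reads across YT-ECKO, against 2994, 2976, 3451 and 3913 across WT. The groups did not overlap, which held in this direction for 1.33% of all genes tested, and the log2 difference was 0.59 ± 0.30 (SE; limma adjusted p = 0.928). Fzd4, the Norrin receptor gene, measured 254, 2.65, 0 and 56.3 scaled reads across YT-ECKO, against 567, 83.2, 559.5 and 173 across WT (log2 difference -1.17 ± 0.59, SE; limma adjusted p = 0.928). Robo4 had 1697 ± 990 in YT-ECKO and 2525 ± 1068 in WT, and Egfl7, the gene with the most scaled reads of the list, 88081 ± 19247 in YT-ECKO and 92285 ± 4534 in WT (SD, n = 4 each).

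Of 25 flow-responsive genes and targets of KLF2 or KLF4, 19 were tested, 13 lying higher and 6 lying lower in YT-ECKO, a median of 0.15 (0.05 without YT-ECKO 2 to 0.25 without YT-ECKO 3). The list holds genes that these factors raise and genes that they lower. Timp3, a metalloprotease inhibitor gene of the endothelial matrix, measured 2650, 2052, 2061 and 1966 scaled reads across YT-ECKO, against 659, 1155, 1299 and 748 across WT. The groups did not overlap, and the log2 difference of 1.11 ± 0.39 (SE; limma adjusted p = 0.698) was 1.02 without YT-ECKO 1. Slco2a1, the prostaglandin transporter gene, measured 711, 324, 562 and 613 scaled reads across YT-ECKO, against 208, 307, 318 and 226 across WT, again without overlap (log2 difference 0.77 ± 0.53, SE; limma adjusted p = 0.981). Groups failed to overlap in this direction for 2 of the 19 genes, and for 1.33% of all genes tested. Angpt2, the Tie2 ligand gene, measured 0, 388, 46.0 and 311 scaled reads across YT-ECKO, against 143 to 741 across WT. Slc9a3r2, which encodes the scaffold NHERF2 and had the most scaled reads of the list, had 3990 ± 1284 in YT-ECKO and 4361 ± 1244 in WT (SD, n = 4 each).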

How the data were processed

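RNA was extracted with Trizol and 500 ng of total RNA went into each Lexogen Quant-Seq library, per the labels' protocols. Bowtie2, edgeR and build mm10 were used per the submitters' processing notes; their versions, the counter and the strand setting were not given in the sources used here, and reads of a gene and an antisense partner cannot be told apart. For each library the authors deposited a table of log2 values. The unit was settled from the values: linear sums of 10.3 to 10.9 M, and 89.8% to 100% of values under 12 within 0.1 of a whole multiple of a step per library, which gave the implied depth. Symbols listed once in all 8 tables were used (24394). Genes with at least 10 scaled reads in 4 libraries (8706) were fitted in limma 3.58.1 (R 4.3.3, trended and robust) on log2(scaled reads + pseudocount), where the pseudocount has a log2 of 7, and p-values were adjusted over all of them by Benjamini-Hochberg. The functions were tested on simulated data. Permutation tests on single values were exact and two-sided.

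The factors, gene lists and alternatives were chosen with earlier results of these data known. Other genes named were, per list, the 3 with the smallest p and the 1 with the highest mean, and the 2 most abundant of each marker list. 1 marker gene is not reported here and is left out of its list. Coordinates are from GENCODE M21 (GRCm38). Alternatives were other pseudocounts, scalings, filters, moderation, an erythroid covariate, a replicate block and each library left out.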

Additional observations from a re-analysis of the deposited data

Results flagged for a closer look

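Of 139 sets of 4 libraries looked at, 15 held a library far from the other 3 of its group, by a gap of more than 0.829 of the group's range. Chance alone sets apart about 1 in 20 where values are normally distributed. Some sets here hold libraries at 0 and some share genes, so the count of 15 cannot be set against that rate. None was a level of the 10 factors. The log2 ratio of Sox17 over Sox7 was 5.30 in WT 2, against 3.96 to 4.13 in the other WT libraries. The log2 ratio of Klf2 over Klf4 was 0.52 in WT 4, against -0.32 to -0.25. Klf9 stood at 1073 scaled reads in YT-ECKO 3 (682 to 725 in the others of its group) and at 701 in WT 3 (293 to 356). Klf6 stood at 1764 in YT-ECKO 4 (2052 to 2101), and Timp3 at 2650 in YT-ECKO 1 (1966 to 2061). The other such values were markers of other cell types at or near 0 elsewhere in their group. The mural marker Rgs5 stood at 418 scaled reads in YT-ECKO 3 (0 to 3.13), and the mural marker Abcc9 at 767 in YT-ECKO 2 (0 to 95.9) and 326 in WT 1 (0 in the others). The fibroblast marker Col1a1 stood at 179 in YT-ECKO 4 (0 to 1.76) and 266 in WT 4 (0 to 4.35). The neuron marker Stmn2 stood at 520 in YT-ECKO 1 (0 to 17.6). The oligodendrocyte marker Mbp stood at 1067 in YT-ECKO 2 (0 in the others of its group), which set the summed oligodendrocyte markers at 1067 there (0 to 63.0 in the others). The oligodendrocyte lineage marker Olig2 stood at 171 in WT 2 (0 in the others of its group).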

How the results depend on the processing

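The log2 differences of Sox17, Sox18, Erg, Ets1, Tal1 and Klf2 kept their direction under all 19 alternatives, and no factor was called under any of them (lowest limma adjusted p 0.494, for Tal1 without YT-ECKO 2). The Tal1 difference ran from -3.51 (log2 values as deposited) to -0.95 (a pseudocount with a log2 of 9), and from -1.95 to -1.07 with a library left out. With the erythroid covariate Sox7 turned to 0.26 and Klf4 to -0.064; the cause was not tested. With a library left out the ranges were -0.38 to 0.17 for Fli1, -1.02 to 0.22 for Gata2 and -0.19 to 0.33 for Klf4, and these 3 changed sign. Differences of mean scaled reads with a library left out ran from -273 to 80.4 for Sox7, -405 to 140.0 for Fli1, -358 to 173 for Gata2 and -332 to 430.1 for Klf4, again with a change of sign. For Tal1 they ran from -857 to -623, and the two-sided exact permutation p was 0.0571 without YT-ECKO 1, YT-ECKO 4 or WT 1 and 0.0286 when any of the other 5 libraries was left out.

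The median over all genes tested was -0.09, and -0.28 under a pseudocount of 1. The number of genes called was 3. It was 0 under a pseudocount of 1, for the deposited log2 values themselves and without a filter, 1 without trended and robust moderation and with the erythroid covariate, and 5 with the replicate block. With a library left out it ran from 0 (without WT 2) to 6 (without YT-ECKO 3), and was 1 without WT 1. Without YT-ECKO 1 it stayed at 3. The replicate numbers share only a number: same-numbered libraries correlated at -0.04 to 0.08 in their deviations from group means, and the block changed no call of a factor (Tal1 adjusted p = 0.683). For the other genes named, alternatives were added after seeing the data, and Elf2 turned to 0.0029 with the erythroid covariate. With a library left out, ranges that crossed 0 were -0.61 to 0.16 for Sox15, -0.25 to 0.18 for Sox4, -0.38 to 0.31 for Elf2, -0.69 to 0.062 for Klf13, -0.18 to 0.078 for Egfl7 and -0.31 to 0.048 for Slc9a3r2.

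In the main fit the 95% intervals of Erg, Fli1, Ets1 and Klf4 lie within 1 log2 unit of 0 on either side. Those of the other 6 factors reach past it, so a 2-fold difference lies within the intervals of those 6. The outer bounds of Fli1 (-0.99), Klf4 (0.96) and Erg (0.94) lie close to 1. Under a pseudocount of 1 the difference was -0.11 ± 0.47 for Fli1 and 0.12 ± 0.44 for Klf4 (SE). Without YT-ECKO 4 it was 0.50 ± 0.29 (SE) for Erg. A 2-fold difference of Erg, Fli1 or Klf4 is therefore not excluded under every setting.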
